A study of Rattus norvegicus with 18 samples.

Results

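The collagens, laminins and core matrix proteins are the secreted proteins that build the extracellular matrix, and their transcripts were followed here in the rat hippocampus after pilocarpine-induced status epilepticus (SE). Genes were taken by their symbols: all symbols of the form of a collagen or laminin chain, and fibronectin, periostin, biglycan, decorin, lumican, fibromodulin, tenascin C, the fibulins, fibrillin, Sparc and Sparcl1, the thrombospondins, the nidogens, elastin, lysyl oxidase and matrix Gla protein. The arrays named 55 of these genes among 12344 named genes, and 54 of the 55 had a probe that could be tested, against 12331 of all named genes. The 54 comprise 28 collagens, 8 laminins and 18 other matrix genes. Sparcl1 could not be tested because its spot carried a saturation flag on 9 of the 18 arrays.

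The samples were hippocampi of male adult Wistar rats, with 1 array of the CodeLink Rat Whole Genome design for each rat. Rats given scopolamine methylnitrate and then pilocarpine, a muscarinic agonist, went through SE that was stopped with diazepam. The 4 groups were 5 rats at 3 days after SE (D3), 5 at 7 days (D7), 5 within 12 h of the first spontaneous seizure (Chronic), and 3 saline-treated rats (Control), 1 for each of those times. The study's methods describe more rats for an experimental group than the Control arrays analysed here. Control rats received saline alone, without pilocarpine or the SE that follows it, so that drug and seizure cannot be told apart in these comparisons, and the single Control rat of a time cannot show how Control rats of that time vary. Only rats that reached SE and survived were followed. Whether the rats of a group came from separate litters is not given, and p-values measure the spread between these rats.

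The matrix of the healthy hippocampus is poor in fibrillar collagen. Laminins, type IV collagen and nidogens form the basement membranes of blood vessels and of the pial surface, while fibrillar collagens, periostin, biglycan, decorin and the fibulins belong mainly to the leptomeninges and the outer coats of larger vessels. After injury, fibroblasts, vessel wall cells and reactive astrocytes can lay down fibronectin, periostin, tenascin C and collagens, which bind integrins and other receptors on neighbouring cells. A whole hippocampus holds all these cells, and in such bulk tissue fewer cells of a type and less RNA per cell cannot be told apart.

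Values are the normalized intensities that the authors deposited, linear and with a median of about 1 on each array. Between 66.0% and 76.0% of spots were flagged good (G) on an array, and arrays of 1 group correlated at 0.949 to 0.97. Among the 54 genes, 31 were flagged G on all 18 arrays, while Col10a1, Col4a4, Col4a5 and Nid1 were flagged low (L) on all of them. The matrix genes varied more between rats of a group than genes at large, with a median within-group SD of 0.42 on the log2 scale against 0.22 over all named genes. A gene counts as risen or fallen where limma gave an adjusted p under 0.05 and the fitted difference reached 2-fold, each gene being read from 1 probe, its brightest.

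At D3, 13 of the 54 genes rose against Control and 0 fell, where 3.42% of all 33800 tested probes rose and 1.17% fell. At D7, 2 rose and 0 fell, beside 3.06% and 0.432% of all probes. In Chronic, 3 rose and 0 fell, beside 2.28% and 0.612%. Over all 12331 named genes, each with 1 probe, the D3 comparison called 628 higher, that of D7 469 and that of Chronic 354. The share of matrix genes that rose was thus 24.1% at D3, 3.7% at D7 and 5.6% in Chronic. Over all named genes it was 5.1%, 3.8% and 2.9%, so that the D7 share was near that of genes at large. The D7 count was 6 without Control rat 47, 4 without D7 rat 35 and 6 under scaling to percentile 75, and the Chronic count was 1 without either Control rat 36 or Chronic rat 41. All 13 genes called at D3 had every D3 array above every Control array. That describes genes chosen by the same comparison and is no separate support. The share of all probes separated in this way was not counted. Set against the single Control rat of day 3, Bgn, Col16a1, Fbln1, Fbln2, Fbln5, Lox and Postn kept their D3 call and the other 6 lost it, both D7 calls were lost against the rat of day 7, and Col16a1 alone kept its Chronic call. The median log2 fold change of the 54 genes went from 0.60 (D3) to 0.45 (D7) and 0.38 (Chronic), beside −0.10, −0.12 and −0.12 over all named genes. For the counts of 0 that fell, limma gave 3 genes lower at D3, 2 at D7 and 1 in Chronic at an unadjusted p under 0.05, and the methods' t-test with its 2-fold limit gave 0 at each stage.

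Without the fold limit, 26 of the 54 genes were higher and 2 lower at D3, beside 7.91% and 14.2% of all probes. At D7 it was 10 higher and 2 lower, beside 6.2% and 11.9%. In Chronic it was 6 higher and 1 lower, beside 4.86% and 9.8%. Over all 12331 named genes, each with 1 probe, 1459 were higher and 2036 lower at D3. The like counts were 991 and 1908 at D7, and 774 and 1567 in Chronic. Under this rule lower probes outnumbered higher ones over the whole array at each stage, whereas among the matrix genes the higher ones did.

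**Figure D1:**
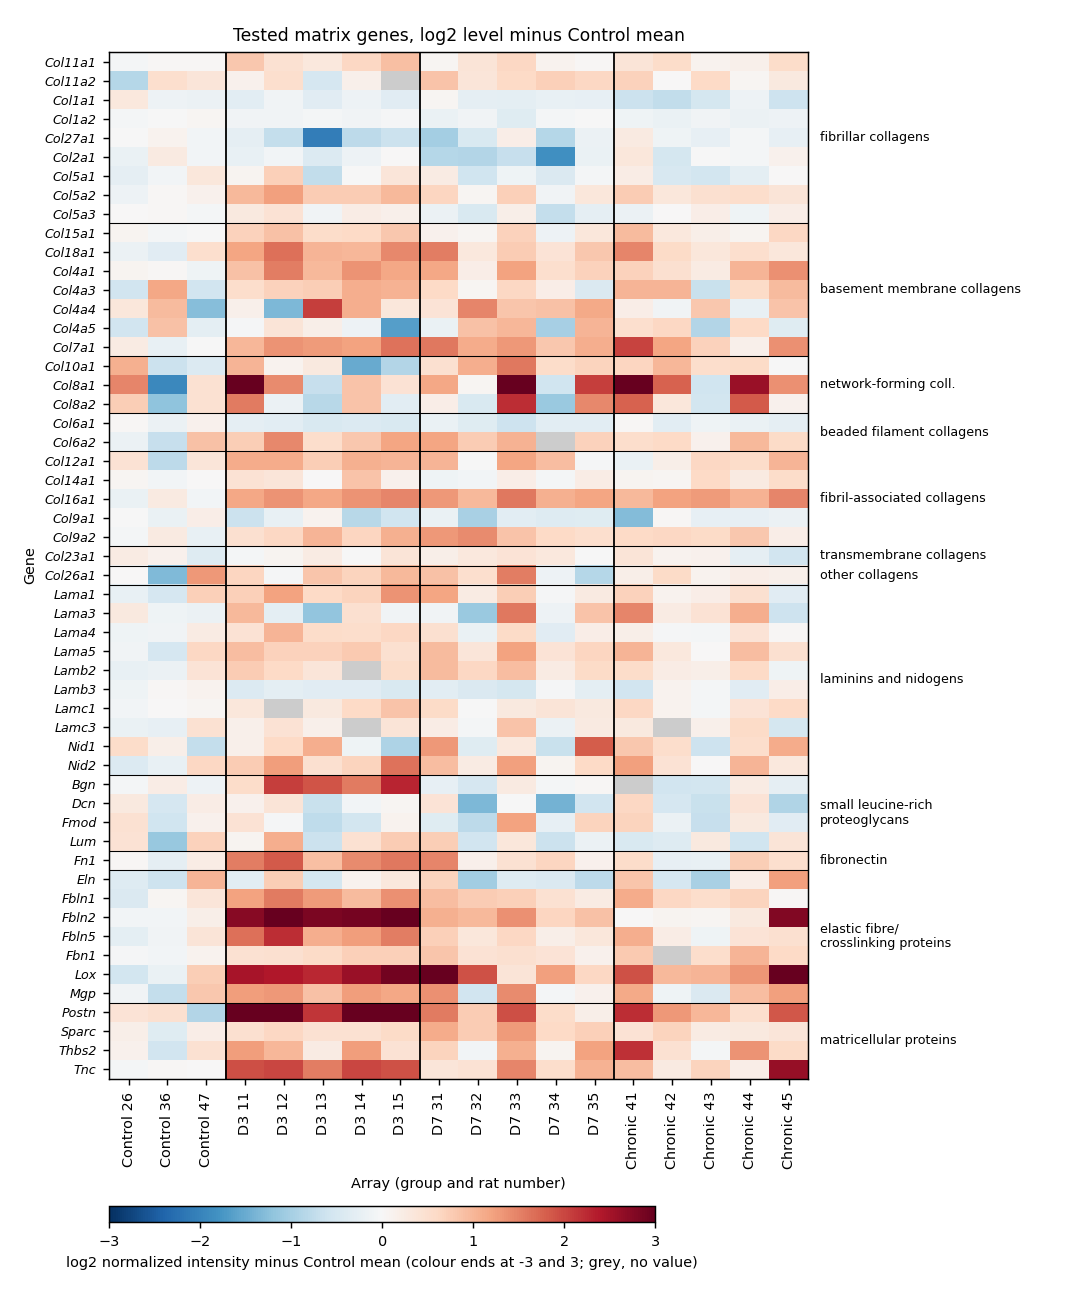
Log2 normalized intensity minus the Control mean for the 54 tested matrix genes (rows, grouped by role) on the 18 arrays (columns, grouped by condition), red for higher, blue for lower and grey for no value. The 5 D3 columns are red for Postn, Fbln2, Lox, Tnc and Fn1, the type I collagens stay pale throughout, and Col8a1 and Col8a2 vary within every group.

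The matricellular proteins, which sit in the matrix and act on cell adhesion more than on its strength, held the gene with the largest rise among the 54. Periostin (Postn, probe AA894092.1), which binds collagen and fibronectin and is made by fibroblasts of injured tissue, had normalized intensities of 0.362, 0.385 and 0.148 on the Control arrays, all flagged L. It reached 2.18, 5.43, 1.21, 2.57 and 3.46 at D3, then 0.813, 0.464, 1.04, 0.402 and 0.311 at D7 and 1.26, 0.673, 0.547, 0.392 and 1.003 in Chronic. All D3 arrays lay above all Control and all D7 arrays, and 1 Chronic array passed the lowest D3 array. Postn rose at D3 with a fitted log2 fold change of 3.26 ± 0.47 SE (adjusted p = 0.000116). With Control values raised to at least the lowest G-flagged signal of each array, Postn rose 8.02-fold, which is no strict bound. From D3 it fell by 2.27 ± 0.41 (SE) on the log2 scale to D7 (adjusted p = 0.0103) and by 1.89 ± 0.41 to Chronic (adjusted p = 0.0142). Without the D3 rat numbered 12 the fall to Chronic had an adjusted p of 0.0524.

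Tenascin C (Tnc), a glycoprotein that astrocytes and fibroblasts make after injury, stood at 3.89, 4.20 and 4.13 in Control and at 15.5, 16.4, 11.85, 16.4 and 15.3 at D3. At D7 it stood at 5.27, 5.50, 11.2, 5.85 and 8.37, and in Chronic at 7.77, 4.87, 6.49, 4.66 and 24.8. All 15 pilocarpine arrays were thus above all Control arrays, the highest being the Chronic rat numbered 45. The rise at D3 was 1.88 ± 0.37 (SE, log2) with an adjusted p of 0.0016, and a second Tnc probe gave 2.10 ± 0.44 (adjusted p = 0.00239). At D7 the difference from Control was 0.77 ± 0.37 (adjusted p = 0.162) and in Chronic 0.93 ± 0.37 (adjusted p = 0.0971), which did not pass the test.

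Sparc, a collagen-binding protein of glia and endothelium with the brightest probe of all 54 genes, had a log2 difference from Control of 0.52 ± 0.16 (SE) at D3, 0.90 ± 0.16 at D7 and 0.40 ± 0.16 in Chronic. The D7 value had an adjusted p of 0.00127, but it was under the 2-fold limit. Its intensities ran from 69.2 to 102 in Control, from 122 to 137 in D3 rats, from 136 to 218 in D7 rats and from 107 to 142 in Chronic rats, and the D7 group was the highest. Thbs2, a thrombospondin, had differences of 0.83 ± 0.41, 0.59 ± 0.41 and 0.91 ± 0.41 at the 3 stages in turn (adjusted p from 0.148 to 0.347). Sparcl1, the Sparc homologue of astrocytes, was not tested. Its intensities were 222 to 273 in Control with all 3 spots saturated, 142 to 176 in D3 rats, 219 to 240 in D7 rats and 138 to 218 in Chronic rats.

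Elastic fibre and crosslinking proteins formed the group with the most calls, 4 of 7 tested genes at D3, beside 5.1% of all named genes. Fibulin 2 (Fbln2, probe AA944398.1), which links elastic fibres and basement membranes, stood at 4.69, 4.73 and 5.63 in Control and at 33.04, 46.8, 35.2, 36.4 and 42.1 at D3. It then stood at 10.6, 9.85, 13.01, 7.87 and 9.25 at D7 and at 5.06, 5.29, 5.20, 6.15 and 34.1 in Chronic. The D7 arrays lay between Control and D3 with no overlap on either side, and 4 of the 5 Chronic arrays were close to Control. Fbln2 rose by 2.94 ± 0.42 (SE, log2) at D3, which is 7.69-fold (adjusted p = 9.88e-05). It fell by 1.95 ± 0.36 from D3 to D7 (adjusted p = 0.0116) and by 2.30 ± 0.36 from D3 to Chronic (adjusted p = 0.00118). The D7 difference from Control, 0.996 ± 0.42, did not pass (adjusted p = 0.103). The high Chronic array was again that of rat 45, which also had the highest Lox and Tnc levels of all arrays.

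Fibulin 5 (Fbln5, probe NM_019153.2), an elastic fibre organizer, stood at 0.805, 0.927 and 1.31 in Control and at 3.12, 4.59, 2.11, 2.36 and 2.88 at D3. It returned to 1.63, 1.26, 1.53, 1.12 and 1.25 at D7 and stood at 2.12, 1.16, 0.911, 1.31 and 1.38 in Chronic. The D3 group did not overlap Control or D7, and it overlapped Chronic through rat 41. The rise at D3 was 1.55 ± 0.25 (SE, log2; adjusted p = 0.00029). The fall from D3 was 1.11 ± 0.22 at D7 (a log2 fold change of −1.11, adjusted p = 0.0155) and 1.13 ± 0.22 in Chronic (log2 fold change −1.13, adjusted p = 0.00547). Both falls dropped under the 2-fold limit without D3 rat 12, the fall to D7 was also lost without D7 rat 34 (adjusted p of up to 0.0553 over these fits), and that to Chronic was also under 2-fold without Chronic rat 43. With the level of leptomeningeal markers as a covariate, an alternative chosen after seeing the data, they were −0.93 and −0.95 and again under that limit.

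Fibulin 1 (Fbln1) stood at 2.75, 3.84 and 4.75 in Control and at 8.55, 10.9, 8.92, 7.14 and 9.56 at D3, with no overlap. It stood at 7.02, 6.25, 6.07, 5.03 and 4.37 at D7 and at 7.92, 5.67, 5.28, 5.90 and 3.80 in Chronic. It rose by 1.28 ± 0.21 (SE, log2) at D3 (adjusted p = 0.000314). At D7 its difference was 0.62 ± 0.21, with an adjusted p of 0.0429 but under 2-fold.

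Lysyl oxidase (Lox), the enzyme that crosslinks collagen and elastin, stood at 0.741, 0.948 and 1.81 in Control and at 6.06, 5.69, 5.19, 6.49 and 8.08 at D3. At D7 the 5 rats spread over 9.69, 4.08, 1.41, 2.52 and 1.67, and in Chronic over 4.07, 2.13, 2.19, 2.71 and 10.45. The D3 rats were alike, whereas those of both later groups differed by several fold among themselves. Lox rose by 2.52 ± 0.52 (SE, log2) at D3 (adjusted p = 0.00214) and by 1.70 ± 0.52 in Chronic (adjusted p = 0.0343). The Chronic call was lost without either Control rat 26 or 36, or either Chronic rat 41 or 45, with an adjusted p of up to 0.157. At D7 the difference of 1.46 ± 0.52 had an adjusted p of 0.0574. Of the other genes of this group, Fbn1 (fibrillin) differed by 0.59 ± 0.14, 0.46 ± 0.14 and 0.73 ± 0.15 at D3, D7 and Chronic, all with an adjusted p under 0.05 and under 2-fold. Mgp, an inhibitor of calcification, differed by 1.17 ± 0.44 at D3 (adjusted p = 0.0589), and Eln (elastin) by 0.06 ± 0.46.

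Biglycan (Bgn, probe CB797254.1), a small leucine-rich proteoglycan that binds collagen, stood at 1.58, 1.89 and 1.46 in Control and at 2.38, 6.91, 5.99, 4.79 and 8.002 at D3. At D7 it stood at 1.38, 1.15, 1.97, 1.57 and 1.68, and on the 4 Chronic arrays with a usable spot at 1.09, 1.11, 1.93 and 1.34. The D7 and Chronic rats were thus within or near the Control range, and all D3 rats were above every other rat. Bgn rose by 1.67 ± 0.29 (SE, log2) at D3 (adjusted p = 0.000704). It fell by 1.77 ± 0.25 from D3 to D7 (adjusted p = 0.00293) and by 1.97 ± 0.27 from D3 to Chronic (adjusted p = 0.000367). The other 3 tested proteoglycans of this family, decorin (Dcn, the one with the brightest probe), lumican (Lum) and fibromodulin (Fmod), did not pass in any of the 3 comparisons with Control. Their log2 differences at D3 were −0.04 ± 0.39, 0.35 ± 0.43 and −0.16 ± 0.40 (SE).

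Fibronectin (Fn1, probe AA955600.1), which enters the tissue from plasma and is also made by vessel and glial cells after injury, stood at 4.50, 3.61 and 5.09 in Control and at 12.7, 15.6, 8.13, 11.6 and 12.99 at D3. It stood at 12.02, 4.87, 5.97, 6.86 and 4.80 at D7 and at 6.37, 3.69, 3.71, 7.29 and 6.21 in Chronic. D3 overlapped neither Control nor Chronic, and 1 D7 rat, numbered 31, was at the D3 level. Fn1 rose by 1.46 ± 0.28 (SE, log2) at D3 (adjusted p = 0.00119), and a second probe gave 1.62 ± 0.34 (adjusted p = 0.0026). From D3 to Chronic it fell by 1.19 ± 0.24 (adjusted p = 0.00875), a call that was lost when all Fn1 probes were averaged. The D7 difference from D3, −0.88 ± 0.24, had an adjusted p of 0.0927.

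**Figure D2:**
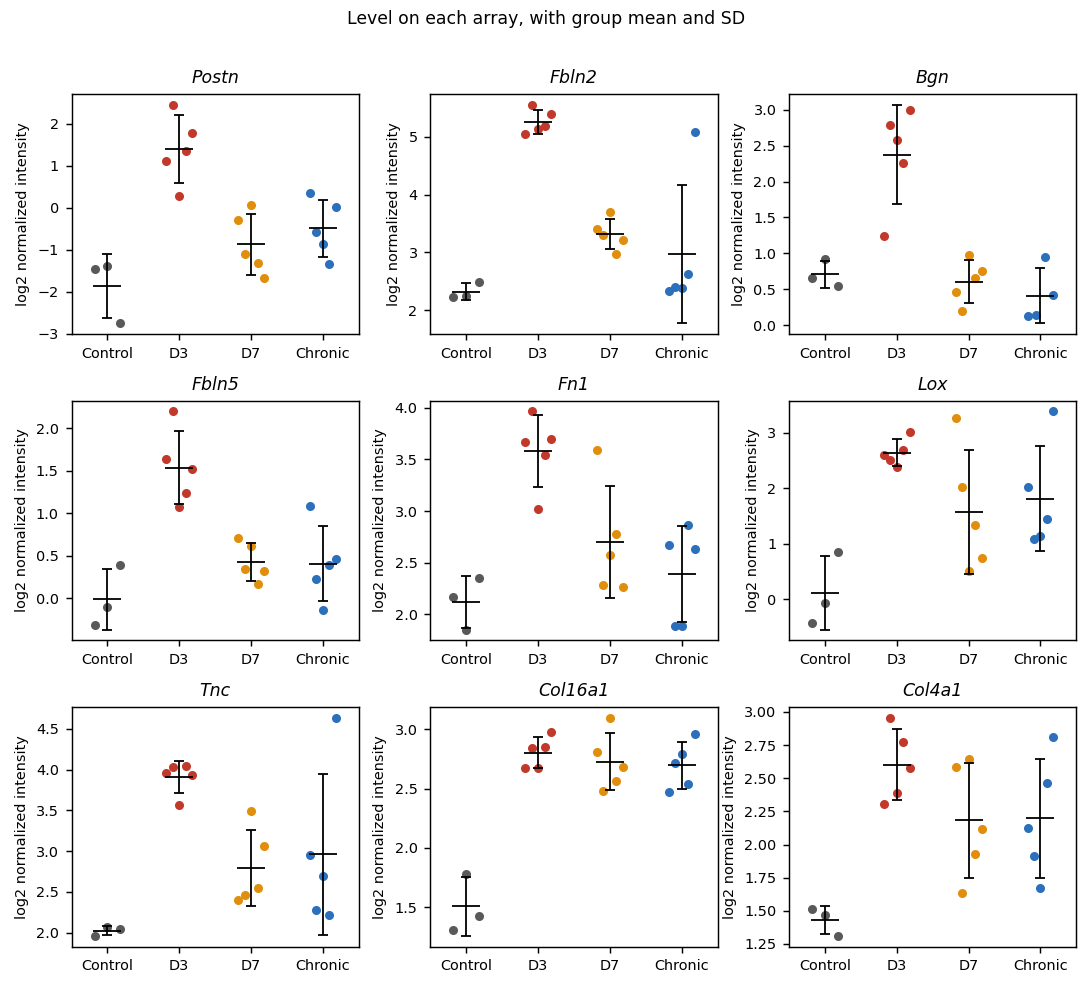
Log2 normalized intensity on each array (points) for 9 of the genes called at D3, by group, with the group mean (bar) and SD (whiskers). For Postn, Fbln2, Bgn and Fbln5 the D3 points stand above the D7 points without overlap, Chronic rat 45 is the single high Fbln2 point, and Col16a1 stays up in all 3 pilocarpine groups. The Bgn panel has 4 Chronic points because the spot of rat 41 was flagged contaminated.

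The genes that fell again after D3 are those for which a shared regulatory sequence would be of interest, so the bases just before their start sites are shown. The table of RefSeq promoters used here (build GRCr8) listed 3 of the 5, Fbln2, Fbln5 and Postn, and 40 of the 55 genes. The 250 bases before the annotated start of each are given 5′ to 3′ on the gene's strand, with matches on either strand to 5 short motifs in capitals. The motifs, chosen with the results known, were the TATA box in the form TATAAA, the AP-1 motif in the form TGANTCA, the GC box of Sp1 in the form GGGCGG, the CCAAT box by its name, and a Smad-binding element in the form CAGACA. Matches of different motifs did not overlap.
Fbln2, chr4:125261409-125261658, plus strand: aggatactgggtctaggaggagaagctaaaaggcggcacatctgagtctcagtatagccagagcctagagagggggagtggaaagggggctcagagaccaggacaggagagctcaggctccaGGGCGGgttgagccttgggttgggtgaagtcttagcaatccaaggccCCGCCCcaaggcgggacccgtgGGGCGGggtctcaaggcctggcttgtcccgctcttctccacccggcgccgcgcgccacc
Fbln5, chr6:126742707-126742956, minus strand: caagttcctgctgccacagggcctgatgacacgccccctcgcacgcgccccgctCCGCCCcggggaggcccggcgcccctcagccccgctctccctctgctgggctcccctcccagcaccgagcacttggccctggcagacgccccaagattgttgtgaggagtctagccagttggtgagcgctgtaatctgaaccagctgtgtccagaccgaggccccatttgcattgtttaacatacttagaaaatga
Postn, chr2:140677811-140678060, plus strand: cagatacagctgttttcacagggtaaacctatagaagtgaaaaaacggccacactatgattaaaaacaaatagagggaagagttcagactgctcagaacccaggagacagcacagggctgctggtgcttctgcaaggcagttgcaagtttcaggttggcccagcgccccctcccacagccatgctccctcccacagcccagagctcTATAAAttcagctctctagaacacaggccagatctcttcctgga
The Fbln2 stretch held 3 matches to the GC box and that of Fbln5 held 1, while the Postn stretch held 1 TATA box starting 44 bases before the start and no GC box. The base composition followed the same split, with 64.0% G and C for Fbln2, 63.2% for Fbln5 and 50.8% for Postn. Among all 33469 promoters of this length, 30.5% held the GC box, 12.9% the TATA box, 34% the CCAAT box, 17.2% the Smad-binding element and 6.34% the AP-1 motif. None of the 3 held any of the last 3 motifs, and no motif searched was found in all of them. Among the 40 matrix genes with a listed promoter, 55.0% held the GC box and 12.5% the TATA box. For the 8 listed genes that rose at D3, the shares were 87.5% and 25.0%. The GC box is thus not particular to genes that fell after D3. A match is a run of letters in this window and no evidence of a bound factor.

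Basement membrane collagens rose in 3 of 7 tested genes at D3, beside 5.1% of all named genes. Col4a1, the main network chain of vascular basement membranes, stood at 2.85, 2.77 and 2.48 in Control and at 4.94, 7.76, 5.25, 6.83 and 5.98 at D3. It stood at 5.997, 3.10, 6.26, 3.81 and 4.34 at D7 and at 4.37, 3.77, 3.19, 5.51 and 7.01 in Chronic. All 15 pilocarpine rats were above all Control rats. The log2 rise at D3 was 1.17 ± 0.24 (SE, adjusted p = 0.00184), and a second probe gave 1.68 ± 0.30. The D7 and Chronic differences, 0.75 ± 0.24 (adjusted p = 0.0332) and 0.77 ± 0.24 (adjusted p = 0.0347), were under 2-fold.

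Col18a1, whose C-terminal fragment is endostatin, stood at 0.583, 0.513 and 0.934 in Control and at 1.48, 2.05, 1.34, 1.31 and 1.77 at D3, with no overlap. At D7 it stood at 1.88, 0.814, 1.12, 0.873 and 1.14, and in Chronic at 1.82, 0.971, 0.825, 0.926 and 0.826, where rat 41 stood apart from the other 4. It rose by 1.26 ± 0.28 (SE, log2) at D3 (adjusted p = 0.00349). With leptomeningeal marker levels as a covariate the value was 0.79 and under 2-fold. Col7a1, the anchoring fibril collagen best known from skin, stood at 0.243, 0.178 and 0.204 in Control, all flagged L. It stood at 0.413, 0.529, 0.499, 0.475 and 0.636 at D3, at 0.624, 0.445, 0.505, 0.362 and 0.437 at D7 and at 0.849, 0.468, 0.334, 0.229 and 0.538 in Chronic. Its fitted log2 fold change was 1.29 ± 0.31 (SE) at D3, 1.18 ± 0.31 at D7 and 1.09 ± 0.31 in Chronic (adjusted p = 0.00532, 0.0136 and 0.023). With Control values raised to at least the lowest G-flagged signal of each array, the D3 rise was 1.78-fold. The like figures for D7 and Chronic were 1.64-fold and 1.55-fold, and none of these is a strict bound. All these figures are under 2-fold, and the calls rest on the fitted changes. D7 rat 34 and Chronic rat 44 were themselves flagged L for Col7a1. Its Chronic and Control values overlapped, and without Control rat 36 the D7 and Chronic calls were lost (adjusted p = 0.0667 and 0.101). The Chronic call was also lost without Control rat 47 or Chronic rat 41, under quantile normalization and with array weights.

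Col15a1, the close relative of Col18a1, differed by 0.70 ± 0.19 (SE, log2) at D3 (adjusted p = 0.0122), under 2-fold, and its 3 probes disagreed in size. A dimmer probe gave 2.39 ± 0.34 at D3, 1.72 ± 0.34 at D7 and 2.01 ± 0.34 in Chronic, all past both limits. Col4a3, Col4a4 and Col4a5, chains of specialised basement membranes such as that of the kidney, were flagged L on most or all arrays and did not pass at any stage.

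Among the 5 fibril-associated collagens, which decorate other fibrils, Col16a1 rose and stayed up. It stood at 2.47, 3.44 and 2.69 in Control, at 6.38, 7.17, 6.37, 7.21 and 7.87 at D3, at 7.01, 5.59, 8.55, 5.91 and 6.41 at D7 and at 5.55, 6.56, 6.91, 5.81 and 7.79 in Chronic. No pilocarpine rat overlapped Control, and the 3 pilocarpine groups overlapped each other. The log2 fold change was 1.30 ± 0.14 (SE) at D3 (adjusted p = 1.07e-05), 1.22 ± 0.14 at D7 (adjusted p = 4.17e-05) and 1.19 ± 0.14 in Chronic (adjusted p = 0.000117). From D3 to Chronic it differed by −0.11 ± 0.12 (adjusted p = 0.716).

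Col12a1, a fibril-associated collagen of tendon and of healing tissue, was dim, at 0.336, 0.145 and 0.321 in Control (all flagged L) and at 0.539, 0.545, 0.415, 0.527 and 0.505 at D3. It stood at 0.511, 0.247, 0.567, 0.479 and 0.245 at D7 and at 0.219, 0.284, 0.385, 0.368 and 0.505 in Chronic, both overlapping Control. The D3 rise had a fitted log2 fold change of 1.01 ± 0.33 SE (adjusted p = 0.0356). It was 1.57-fold, no strict bound, with Control values raised to at least the lowest G-flagged signal of each array. The call was lost when any of 5 single rats was left out, with an adjusted p of up to 0.252. Col9a2 differed by 0.77 ± 0.20 (SE, log2) at D3 and 0.93 ± 0.20 at D7, under 2-fold, and Col14a1, with the brightest probe of the group, by 0.36 ± 0.16 at D3 (adjusted p = 0.129).

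None of the 9 fibrillar collagens was called at any stage. Col1a1 and Col1a2, the chains of type I collagen and the main scar collagen outside the brain, differed by −0.25 ± 0.13 (SE, log2) and −0.08 ± 0.09 at D3, and Col1a2 had the brightest probe of the group. Col1a1 differed by −0.53 ± 0.13 in Chronic (adjusted p = 0.0133), again under 2-fold. A second, much dimmer Col1a1 probe had the opposite sign. It gave 0.28 ± 0.46 at D3 and 0.17 ± 0.46 in Chronic (limma, adjusted p = 0.721 and 0.857). Col5a2, which helps to start type I fibrils, had the largest difference in the other direction, 0.93 ± 0.16 at D3 (adjusted p = 0.000596), and its D7 level was 0.60 ± 0.14 under that of D3 (a log2 fold change of −0.60, adjusted p = 0.0466). Col27a1 differed by −0.90 ± 0.30 at D3 (adjusted p = 0.0371). The beaded filament collagens Col6a1 and Col6a2, which form fine filaments around cells, were under 2-fold as well. Col6a2 differed by 0.94 ± 0.28 at D3. For Col6a1 the 2 probes had opposite signs at D3, −0.39 ± 0.11 for the brighter (adjusted p = 0.0134) and 0.87 ± 0.20 for the dimmer (adjusted p = 0.00393). The single transmembrane collagen, Col23a1, and Col26a1 differed by 0.13 ± 0.20 and 0.62 ± 0.48 at D3 (adjusted p = 0.684 and 0.403).

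None of the 10 laminins and nidogens was called at any stage, and their differences from Control at D3 ran from −0.36 to 0.96 on the log2 scale. At D3, 6 of the 10 had an adjusted p under 0.05 with higher levels: Nid2, a nidogen that ties laminin to type IV collagen (0.96 ± 0.32, SE, log2), Lama1 (0.91 ± 0.29), Lama5 (0.72 ± 0.25), Lama4 of endothelial basement membranes (0.63 ± 0.19), Lamb2 (0.57 ± 0.20) and Lamc1, the shared gamma chain with the brightest probe (0.52 ± 0.17). At D7 it was Lama5 (0.71 ± 0.25) and Lamb2 (0.66 ± 0.19), and in Chronic none. Over the 10 the median went from 0.54 to 0.39 and 0.31 through the stages. Lamb3 lay in the other direction at D3, at −0.36 ± 0.16 (adjusted p = 0.102).

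**Figure D3:**
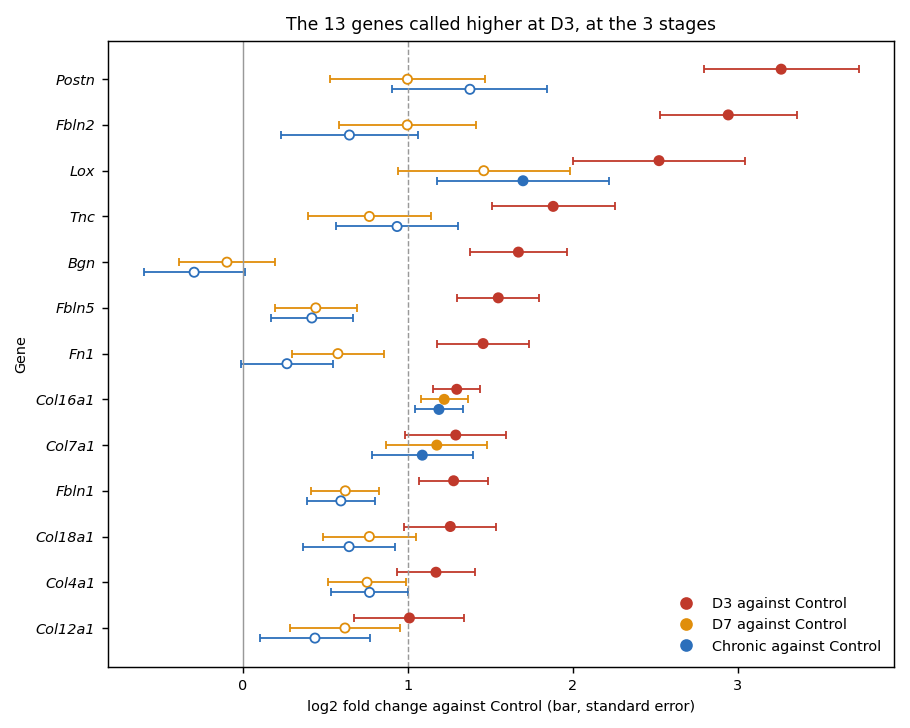
Log2 fold change against Control (points) with its standard error (bars) for the 13 genes called at D3, shown at D3, D7 and Chronic, with filled points for called values and the dashed line at 2-fold. Col16a1 and Col7a1 hold nearly the same value at the 3 stages, whereas Bgn lies near 0 at D7 and Chronic and Fbln2, Postn, Fn1 and Fbln5 lie well to the left of their D3 points.

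The comparison of the pilocarpine groups with each other asked which of these changes differed between stages. From D3 to D7, 4 of the 54 genes fell (Bgn, Fbln2, Fbln5 and Postn) and 0 rose, beside 0.228% and 0.0947% of all probes. From D3 to Chronic, 5 fell (the same 4 and Fn1) and 0 rose, beside 0.547% and 0.195%. Without D3 rat 12 the number that fell to Chronic was 3. Over all 12331 named genes, each with 1 probe, 56 fell and 9 rose from D3 to D7. From D3 to Chronic 123 of them fell and 15 rose. After Benjamini-Hochberg adjustment the methods' t-test called 1 gene lower at D7 (Fbln2) and 0 lower in Chronic, against 5 and 5 before adjustment. Without the fold limit it was 5 and 6 genes lower, beside 0.627% and 1.92% of all probes, and 0 higher in both, beside 0.257% and 0.808%. Between D7 and Chronic 0 genes were called in either direction, beside 0.0207% of all probes higher and 0.0296% lower. At an unadjusted p under 0.05, limma gave 3 genes higher at D7 than at D3, 2 higher in Chronic than at D3, and 2 higher and 4 lower in Chronic than at D7, and the methods' t-test with its 2-fold limit gave 0 in each of these. All these comparisons share the D3 or D7 arrays with those against Control and are not independent of them.

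The mean log2 level of the 13 genes called at D3, minus the Control mean, gives the picture for each rat as a description of genes chosen by that contrast. It was 1.57, 2.05, 1.47, 1.68 and 1.92 in the D3 rats, 1.20, 0.57, 1.02, 0.61 and 0.55 in those of D7, and 1.07, 0.48, 0.42, 0.59 and 1.29 in Chronic. Within the later groups D7 rats 31 and 33 and Chronic rats 41 and 45 were the highest.

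Several members varied between rats rather than between groups, and tissue next to the hippocampus was measured beside them. The largest within-group SD of all 54 genes, 1.54 on the log2 scale, was that of Col8a1, a network collagen of the choroid plexus and of vessel walls, and the next was Col8a2 with 1.12. Col8a1 stood at 1.65, 0.158 and 0.824 in Control, 4.86, 1.59, 0.369, 1.08 and 0.805 in D3 rats, 1.35, 0.623, 5.04, 0.396 and 2.53 in D7 rats and 6.66, 2.05, 0.398, 3.62 and 1.56 in Chronic. The summed intensity of 13 choroid plexus markers, on the same rats, was 304, 30.1 and 105 in Control, 367, 19.9, 25.7, 299 and 32.5 in D3 rats, 22, 21.8, 453, 19.8 and 398 in D7 rats and 341, 162, 29.7, 406 and 221 in Chronic. The highest Col8a1 array of each group except Chronic was also its highest in the marker sum, and each group held arrays with high and with low sums. The groups were not balanced, however. In Chronic 12 of the 13 markers lay above Control, with a median log2 fold change of 1.21 and 0 called. The median was −0.14 at D3 and −0.02 at D7, where 1 marker was called lower. Col8a1 did not pass at any stage, with log2 differences of 1.001 ± 0.93, 1.16 ± 0.93 and 1.73 ± 0.93 (SE; adjusted p from 0.230 to 0.491). With the choroid plexus marker level as a covariate, chosen after seeing the data, it was called at D3 (1.34 ± 0.45, adjusted p = 0.0354) and at D7 (1.41 ± 0.45, adjusted p = 0.032), and Nid2 and Mgp were called at D3 as well. All 27 calls between groups were kept in that fit.

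The summed intensity of 10 markers of leptomeninges and fibroblasts ranged from 45.3 to 176 in Control, 87.6 to 168 in D3 rats, 65.3 to 169 in D7 rats and 79.4 to 199 in Chronic rats, and so overlapped between all groups. At D3, 9 of the 10 markers lay above Control, with a median log2 fold change of 0.98 against 0.60 for the matrix genes, and the marker median was 0.41 at D7 and 0.49 in Chronic. Of these 10, Slc6a13 and Aldh1a2 rose at D3 (1.65 ± 0.52 and 1.53 ± 0.47, SE, log2), none was called later, and Igf2 and Dpt were flagged L on all arrays. Decorin, itself a gene of these cells, stood at 4.52 to 7.83 in Control, 4.04 to 8.36 in D3 rats, 2.42 to 8.50 in D7 rats and 3.43 to 9.93 in Chronic rats. With the leptomeningeal marker level as a covariate 22 of the 27 calls were kept, and those of Col18a1 and Col12a1 at D3, both falls of Fbln5 and the Chronic rise of Lox were lost. The part of leptomeninges in the remaining rises was not tested.

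**Figure D4:**
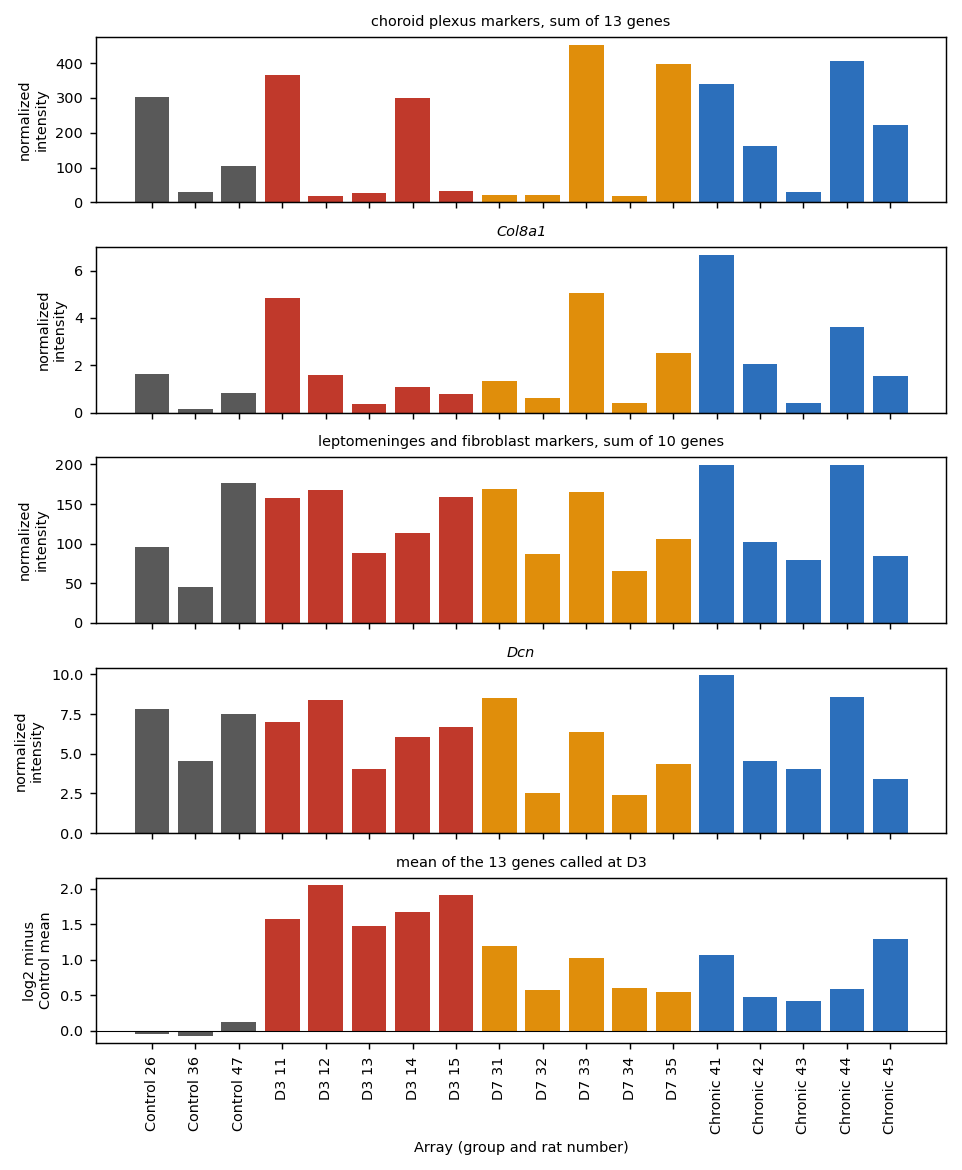
Values on each array (bars, coloured by group: grey Control, red D3, orange D7, blue Chronic) for the summed normalized intensity of choroid plexus markers, Col8a1, the sum of leptomeninges and fibroblast markers, Dcn, and the mean log2 level of the 13 genes called at D3 minus the Control mean. The marker sums and Col8a1 are high on some rats of every group except for Col8a1 in Control, while the mean of the 13 genes is highest in the 5 D3 rats.

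Markers of some other cell types were called as well, and their courses over the stages differed from marker to marker. Over all named genes 5.1%, 3.8% and 2.9% were called higher at D3, D7 and Chronic. Of 12 mural cell genes, Kcnj8 and Tagln rose at D3 (1.03 ± 0.22 and 1.92 ± 0.43, SE, log2), and Tagln, an actin-binding protein of smooth muscle, fell again by 1.72 ± 0.37 to D7 and by 1.65 ± 0.37 to Chronic. The mural sum ranged from 51.8 to 78.5 in Control and 64.0 to 92.2 at D3. None of 11 endothelial markers was called, and their sum was 55.3 to 78.4 in Control and 72.6 to 82.6 at D3. Of 8 astrocyte markers Gfap and Vim rose at every stage against Control. From D3, 1 of the 8 was called lower at D7 and 1 in Chronic. The lowest astrocyte log2 fold changes from D3 were −1.32 at D7 and −1.4 in Chronic. Of 10 microglial and macrophage markers 6 rose at D3, 8 did at D7 and 6 did in Chronic. Their sum, 54.9 to 63.4 in Control, ran from 146 to 186 in D3 rats, from 116 to 312 in D7 rats and from 108 to 174 in Chronic rats. Of 9 neuronal markers 3 fell at D3, 0 did at D7 and 1 did in Chronic, with a sum of 161 to 173 in Control and 93.2 to 108 at D3. None of 8 oligodendrocyte genes was called, with a sum of 227 to 299 in Control and 250 to 388 at D3. Of 3 blood genes Alas2 fell at D3 and D7 and Hba-a2 was flagged L on all arrays. The part of these cells in the matrix changes was not tested.

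Some genes of the wider matrix pathway rose at D3 as well. Among 21 tested enzymes of collagen synthesis and processing, 5 rose at D3, and 2 and 1 did so at the later stages, with none lower. These are 23.8%, 9.5% and 4.8%, beside 5.1%, 3.8% and 2.9% of all named genes. The 5 were P4hb, a subunit of prolyl hydroxylase (1.02 ± 0.14, SE, log2), Plod2, a lysyl hydroxylase (1.56 ± 0.31), Fkbp10, a collagen chaperone (1.36 ± 0.15), Loxl2, a relative of Lox (2.13 ± 0.47), and Tgm2, a transglutaminase (1.02 ± 0.32). Loxl2 was the one called at all 3 stages, with 1.40 ± 0.47 at D7 and 1.81 ± 0.47 in Chronic. Over the 21 the median went from 0.79 to 0.51 and 0.42 through the stages.

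Among 26 tested matrix receptors, 3 rose at D3, Ddr1, a collagen receptor kinase (1.24 ± 0.17, SE, log2), Cd44, the hyaluronan receptor (2.74 ± 0.39), and the proteoglycan Sdc1 (2.94 ± 0.55). Cd44 and Sdc1 were also higher at D7 (1.83 ± 0.39 and 2.20 ± 0.55) and in Chronic (1.27 ± 0.39 and 2.11 ± 0.55). From D3 to Chronic, Cd44 fell by 1.47 ± 0.29 and the collagen-binding integrin chain Itga11 by 1.11 ± 0.20. Over the 26 the median went from 0.30 to 0.40 and 0.18 through the stages, and their values at D3 ran from −0.84 to 2.94. The share of receptors called higher was 11.5%, 7.7% and 7.7%, beside 5.1%, 3.8% and 2.9% of all named genes.

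Of 33 other matrix genes 7 were called higher at D3, with 4 at D7 and 2 for Chronic. These are 21.2%, 12.1% and 6.1%, beside 5.1%, 3.8% and 2.9% of all named genes. Spp1 (osteopontin), an integrin ligand of activated microglia and macrophages, had the largest change, 5.17 ± 0.63 (SE, log2) at D3, 3.67 ± 0.63 at D7 and 4.76 ± 0.63 in Chronic. Hspg2 (perlecan), a basement membrane proteoglycan, rose by 1.11 ± 0.38 at D3. Efemp1 and Efemp2, fibulins outside the 55 genes, rose by 1.24 ± 0.23 and 1.12 ± 0.16 at D3, Emilin1, an elastic fibre protein, by 1.62 ± 0.40 at D3 and 1.27 ± 0.40 at D7, and Matn3, a matrilin, by 2.12 ± 0.55 at D3. Over the 33 the median went from 0.30 to 0.19 and 0.12 through the stages.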

How the data were processed

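Hippocampal RNA of 18 rats was hybridised to 1-colour CodeLink arrays, which the authors scanned on a GenePix scanner and processed with CodeLink Expression Analysis v4.1, per their methods. The intensity deposited by the authors is linear and background-subtracted, and was scaled to a median of about 1 by a single factor for each array. Samples were grouped by their labels, and the members and gene lists were chosen with earlier results of these data known.

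Spots with flags other than G or L (0.699%) were set to missing. Intensities were floored at percentile 1 of an array's positive values, log2-transformed and fitted with limma 3.58.1 in R 4.3.3 (lmFit, contrasts.fit, eBayes with an intensity trend) as 1 model of 4 groups over 33800 probes, those with 3 or more values per pilocarpine group and 2 or more in Control. P-values were adjusted by Benjamini-Hochberg over all probes of a comparison. The methods' t-test was run as an alternative. Each gene had 1 probe, chosen by its mean log2 level (18 members had more). Row names of the value table matched no probe column, so its rows were tied to spots by all 18 values at 5 decimals, and the platform annotation named 16740 probes through that tie (the spot's own accession was among those annotated for 84% of them) and RefSeq accessions 205 more. For groups flagged L on every array, folds were also given with values raised to at least the lowest G-flagged signal of each array. The number of arrays limits the precision. Genes were named where called in at least 1 of 6 comparisons, with the brightest of each role group. The script was tested on simulated data. Promoters came from RefSeq.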

Additional observations from a re-analysis of the deposited data

Results flagged for a closer look

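Single arrays stood apart from the other 4 of their group in 4 of 39 groups of values looked at, where chance gives about 1 in 20. The groups of values of different genes share the same rats and are not independent. Chronic rat 45 had a log2 Fbln2 level of 5.09, against 2.34 to 2.62 in the other Chronic rats. Chronic rat 41 had a log2 Col18a1 level of 0.86, against −0.28 to −0.04. D3 rat 13 was the lowest of its group for Col12a1 (−1.27, others −0.99 to −0.88) and for Tnc (3.57, others 3.93 to 4.04).

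The changes from D3 to the later stages differed between pilocarpine groups by the limma test. From D3 to D7 the log2 fold changes were −1.77 for Bgn, −1.95 for Fbln2, −1.11 for Fbln5 and −2.27 for Postn. From D3 to Chronic they were −1.97 for Bgn, −2.30 for Fbln2, −1.13 for Fbln5, −1.19 for Fn1 and −1.89 for Postn.

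Probes other than the brightest of their gene passed where the brightest did not. For Col15a1 a dimmer probe gave a log2 fold change of 2.39 at D3, 1.72 at D7 and 2.01 in Chronic. The dimmest Fn1 probe, flagged L on 17 of 18 arrays, gave 1.55 at D7 and 1.48 in Chronic. A second Mgp probe gave 1.23 at D3 and a second Sparc probe gave 1.06 at D7.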

How the results depend on the processing

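No paired analysis was possible because rats of different groups carry different numbers. A block by slide or scan date was not run, since no batch of over 1 array was read from the files.

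Of the 27 calls of single genes, none reversed under any alternative. All 27 were kept under scaling to percentile 75, a floor at percentile 5 and the filter on dim probes. The same held for the value table without flags and the methods' t-test unadjusted. Dropping the fold limit could lose no call, because it reuses the same fit with a looser rule. With quantile normalization 2 were lost, with no intensity trend 1, with array weights 1, with the mean of all probes 1, against the time-matched Control rat 10 of 18, and with the methods' t-test after Benjamini-Hochberg adjustment 12. Alternatives chosen after seeing the data were marker levels of choroid plexus and of leptomeninges as covariates, which lost 0 and 5 calls.

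The count of genes higher at D3 (13) was 8 against the time-matched rat and 26 without the fold limit. That of genes lower at D3 (0) was 2 without the fold limit, 1 with the leptomeningeal covariate (Col27a1) and 0 to 1 when single rats were left out. The count higher at D7 (2) was 4 under quantile normalization, 6 under scaling to percentile 75, 1 by the adjusted t-test, 10 without the fold limit and 2 to 6 when single rats were left out, the 6 without Control rat 47 and 4 without D7 rat 35. The count lower at D7 (0) was 1 under quantile normalization, 2 without the fold limit and 0 to 1 without single rats. The count higher in Chronic (3) was 1 against the time-matched rat, 1 by the adjusted t-test, 6 without the fold limit and 1 to 4 without single rats, falling to 1 without Control rat 36 or Chronic rat 41. The count lower in Chronic (0) was 1 without the fold limit. The count lower at D7 than at D3 (4) was 1 by the adjusted t-test, and that lower in Chronic than at D3 (5) was 0 by that test and 3 to 6 without single rats, the 3 without D3 rat 12. Apart from fits with fewer samples or no fold limit, the cause was not tested.

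The median of all named genes at D7 was −0.12, −0.03 under quantile normalization and −0.01 under scaling to percentile 75. In Chronic that scaling gave 969 probes higher and 121 lower, against 770 and 207. Control was flagged L on every array for Postn, Col7a1 and Col12a1. Their rises were therefore also given with Control values raised to at least the lowest G-flagged signal of each array. An L spot can be brighter than a G spot of its array, so neither these folds nor the fitted changes are strict bounds. On Control rat 36, Col6a2 was flagged L at 0.561 and Col8a2 G at 0.416.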
